A study of Canis lupus familiaris with 40 samples.

Results

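The neutrophils compared here came from the blood of tumor-bearing dogs (C PMNs) and healthy dogs (H PMNs), and only libraries whose titles begin with GAR4079 were taken, so that the library series was the same on both sides. They make up 11 of the 40 libraries of the study, 6 of C PMNs and 5 of H PMNs. The study set canine MDSCs (myeloid-derived suppressor cells), sorted from the light fraction of blood, beside mature neutrophils and monocytes, and the libraries described here allow neutrophils of the dense fraction to be compared between disease states. Both groups were sorted in the same way, as CD5-CD21-MHCII-CD11b+ cells that bind CADO48A, an antibody to canine neutrophils, from the red cell pellet of a density gradient. The labels give each library its disease state (Cancer or Healthy) and cell type (Neutrophils), and name the tissue as peripheral blood mononuclear cells, which is not the fraction that the methods describe for PMNs. Age, sex, breed, tumor type, treatment and recruiting center are not given for single libraries, so that these cannot be told apart from the disease state. The dogs were privately owned animals seen at centers in 2 countries and the study describes each sample as 1 dog, while the labels name no dog. The study counts fewer C PMN samples than there are C PMN libraries among the 40, and does not state which was left out. Whether any C PMN libraries share a dog therefore cannot be told. The p-values measure the spread between libraries.

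Neutrophils are short-lived granulocytes of the innate immune system, made in the bone marrow and released into blood, where they are the most abundant white cells of the dog. Their granule proteins and much of their RNA are made before they leave the marrow, and they hold little RNA once mature. In tumor-bearing hosts, neutrophils can be released at earlier stages of maturation, and their transcripts can change in the circulation.

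Each library held between 27306350 and 53502663 counts on genes in C PMNs and between 28298329 and 60473238 in H PMNs. Between 9845 and 11101 genes reached 10 counts in the C PMN libraries and between 9991 and 12466 in the H PMN libraries (two-sided exact permutation test over 462 divisions of the libraries, p = 0.128). The 10 most abundant genes took 13.6% to 22.7% of the counts in C PMNs and 13.7% to 15.4% in H PMNs. Fewer cells of a type and less RNA per cell cannot be told apart in such bulk libraries. The files list Ensembl gene IDs without symbols, so that named neutrophil markers could not be read, and lists made from the other library series, PAT4694, were used to check the cell type. A list of 27 genes at least 50-fold higher in neutrophils than in monocytes there reached 10 counts in all 11 libraries. Its summed level was 55248 to 147273 CPM (counts scaled to the library's total) in C PMNs, 48973 to 74111 in H PMNs and 426 to 1163 in the monocytes of tumor-bearing dogs (C MONOs) of series GAR4079. The corresponding list of 50 monocyte genes summed to 149 to 1388 CPM in C PMNs and 149.6 to 510 in H PMNs, against 73615 to 100048 in C MONOs. The groups overlapped in both sums (exact permutation test, p = 0.357 for the neutrophil list and p = 0.645 for the monocyte list). C PMN 4 had the highest monocyte sum, 1.49% of the C MONO median, and no other C PMN library passed 0.653%.

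Of 10664 genes tested, 94 differed between C PMNs and H PMNs with an FDR of at most 0.05 (0.881% of the genes tested, edgeR's quasi-likelihood test with Benjamini-Hochberg adjustment). Of these, 75 were higher in C PMNs (0.703%) and 19 were lower (0.178%). At an unadjusted p under 0.05 there were 1655 genes, 966 higher and 689 lower. The direction of the split depended on how the libraries were scaled. With DESeq2's size factors in place of TMM (the trimmed mean of M-values, which sets each library's scale from the bulk of its genes), 78 were higher and 19 lower. With no scaling beyond library size, 41 were higher and 86 lower, and the share of calls that were higher fell from 79.8% to 32.3%. The median log2 fold change over the genes tested moved from 0.01 to -0.28 with it. The TMM factors themselves differed between the groups, at 0.919 ± 0.128 (SD, n = 6) in C PMNs and 1.12 ± 0.115 (SD, n = 5) in H PMNs, with overlapping ranges (exact permutation test, p = 0.0238). This measure was chosen after its values had been seen. Called under all 3 scalings were 57 genes, 38 higher and 19 lower, and none of the 94 changed direction.

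**Figure D1:**
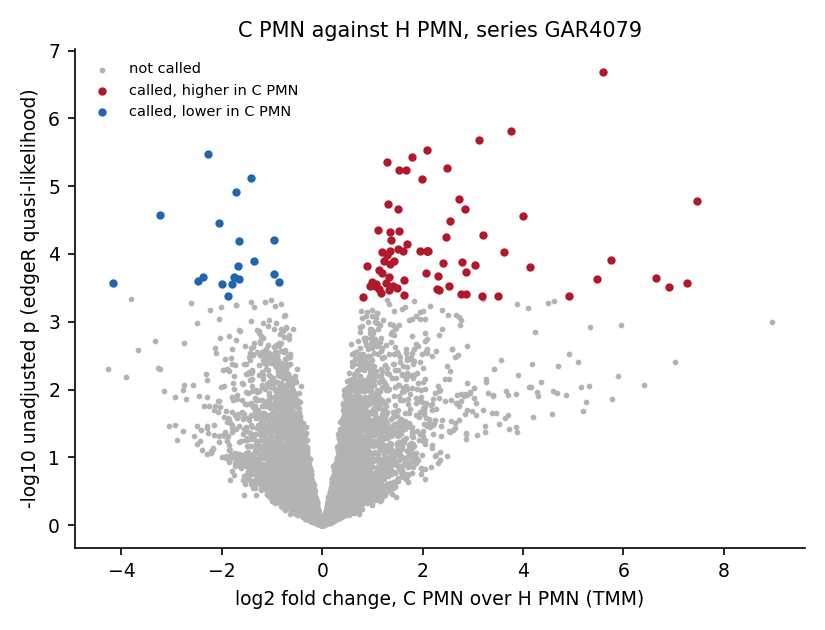
Each point is a gene tested, with the log2 fold change of C PMNs over H PMNs on the horizontal axis and -log10 of its unadjusted p on the vertical axis. The 75 genes called higher (red) outnumber the 19 called lower (blue), and gray points are genes not called.

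The sizes of the differences were wide in both directions. Of the 75 higher genes, 71 were at least 2-fold higher, 36 at least 4-fold and 17 at least 8-fold. Of the 19 lower genes, 16 changed by at least 2-fold, 6 by at least 4-fold and 2 by at least 8-fold. For 2 of the 75 genes every H PMN library held 3 counts or fewer, so that their fold is not given. Over the other 73 the smallest fold was 1.75 and the median 3.48, and the largest folds rest on few H PMN counts and are not given, and over the 19 it was 1.82 to 17.9 with a median of 3.38. The 75 genes together took 2.09% of a C PMN library and 0.703% of an H PMN library, and the 19 genes took 0.105% and 0.388%.

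Most called genes set all C PMN libraries apart from all H PMN libraries, a gap that the test favors. For 61 of the 75 higher genes all 6 C PMN libraries lay above all 5 H PMN libraries, for 12 genes 5 libraries did, and for 2 genes 4 did. For 18 of the 19 lower genes all 6 C PMN libraries lay below all H PMN libraries. Such a gap was seen in 1.39% of all genes tested for higher and 1.37% for lower levels, and without TMM factors in 0.431% and 3.98%. The median of the 75 genes, taken as the log2 difference from the H PMN mean, ran from 1.36 in C PMN 5 to 1.94 in C PMN 6, and from -0.24 to 0.26 in the single H PMN libraries. C PMN 5 was the lowest C PMN library in 23 of the 75 genes, C PMN 1 in 21 and C PMN 4 in 18.

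The number of calls moved with single libraries of either group. Leaving out 1 library gave between 13 calls without H PMN 4 and 175 without C PMN 5. The count was 27 without H PMN 1, 37 without H PMN 2, 21 without H PMN 3 and 33 without H PMN 5. It was 60 without C PMN 2, 55 without C PMN 3 and 52 without C PMN 6, and it stayed within 1.5 times of 94 without C PMN 1 (99) or C PMN 4 (117). Genes called in every one of these 11 fits numbered 13, of which 10 were higher and 3 lower.

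**Figure D2:**
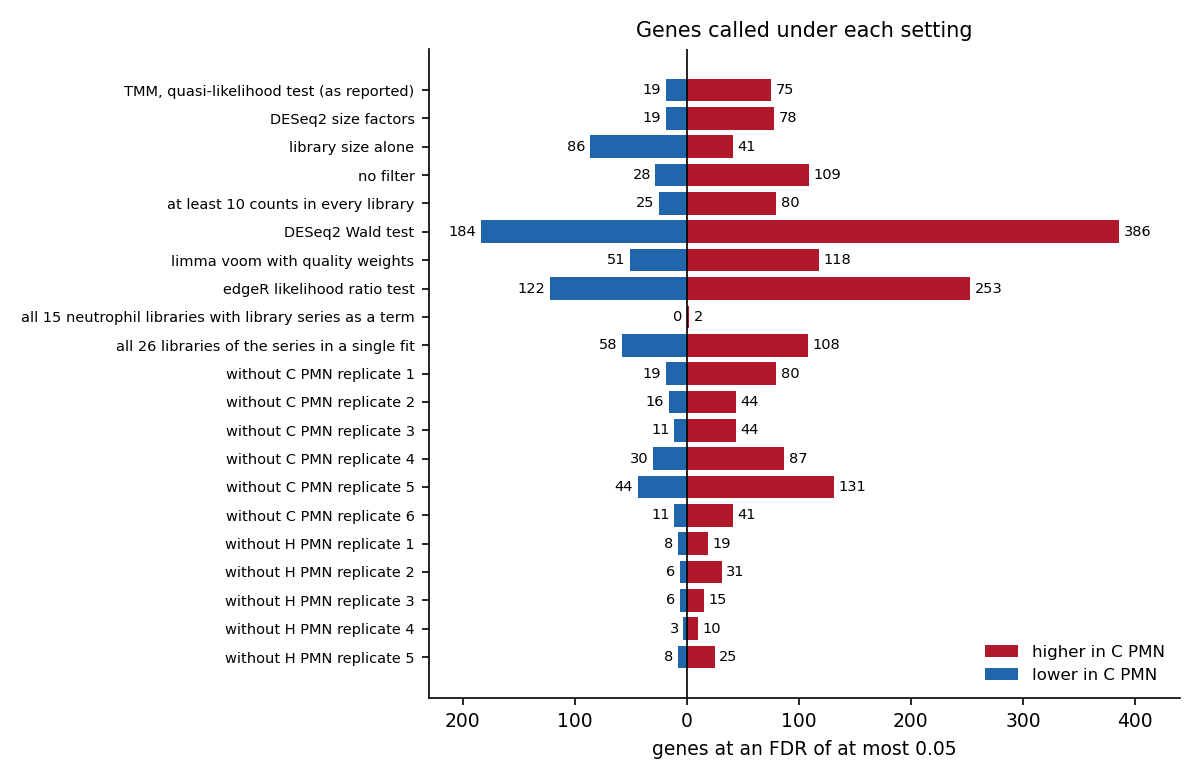
Bars give the number of genes at an FDR of at most 0.05 that were higher (red, right) or lower (blue, left) in C PMNs under each setting on the vertical axis. Higher genes outnumber lower ones under every setting shown except library size alone, with 41 higher and 86 lower.

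The 4 IDs described next are the 2 with the smallest FDR in each direction, with ties settled by the unadjusted p (8 higher genes shared the FDR of ENSCAFG00000008582). Their values are CPM scaled by TMM factors. ENSCAFG00000009243 was at few counts in the neutrophils of healthy dogs and higher in those of tumor-bearing dogs. It was at 2.73, 10.4, 19.5, 9.81, 3.01 and 11.1 CPM in C PMN 1 to 6 (73 to 642 counts) and at 0.127, 0.278, 0.160, 0.210 and 0.183 CPM in H PMN 1 to 5 (5 to 15 counts). Every C PMN library lay above every H PMN library, and C PMN 1 and C PMN 5 were the lowest of their group. The log2 fold change was 5.60 (SE 0.59, edgeR FDR 0.00220), a 48.4-fold difference that rests on 5 to 15 counts in the H PMN libraries.

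ENSCAFG00000008582 was expressed in neutrophils of both groups and was higher in those of tumor-bearing dogs. The C PMN libraries held 297, 884, 768, 410, 277 and 764 CPM, a mean of 567 ± 269 (SD, n = 6). The H PMN libraries held 24.7, 63.9, 59.8, 14.7 and 45.1 CPM, a mean of 41.6 ± 21.5 (SD, n = 5). The ranges did not overlap, C PMN 1, 4 and 5 lay below the other C PMNs, and the log2 fold change was 3.77 (SE 0.47, edgeR FDR 0.00619), or 13.6-fold.

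ENSCAFG00000014600 was lower in the neutrophils of tumor-bearing dogs. It was at 6.25, 11.4, 4.50, 8.06, 13.3 and 13.0 CPM in C PMN 1 to 6, and at 69.2, 40.8, 38.1, 34.7 and 44.4 CPM in H PMN 1 to 5. The lowest H PMN library was above the highest C PMN library, and H PMN 1 stood above the rest of its group. The log2 fold change was -2.27 (SE 0.30, edgeR FDR 0.00619).

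ENSCAFG00000002955 was also lower in tumor-bearing dogs, with the narrowest spread of the 4 within C PMNs relative to its mean. The C PMN libraries held 14.2, 20.3, 22.7, 17.7, 14.2 and 17.9 CPM, a mean of 17.8 ± 3.36 (SD, n = 6), and the H PMN libraries 42.1, 37.7, 55.5, 39.9 and 64.2 CPM, a mean of 47.9 ± 11.5 (SD, n = 5). Again no library of one group fell within the range of the other, and the log2 fold change was -1.42 (SE 0.20, edgeR FDR 0.00693). All 4 IDs were called in each of the 11 fits that left out 1 library. In a single fit of all 26 libraries of the series, ENSCAFG00000014600 was not called (edgeR FDR 0.0741, log2 fold change -2.31) and the other 3 were.

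**Figure D3:**
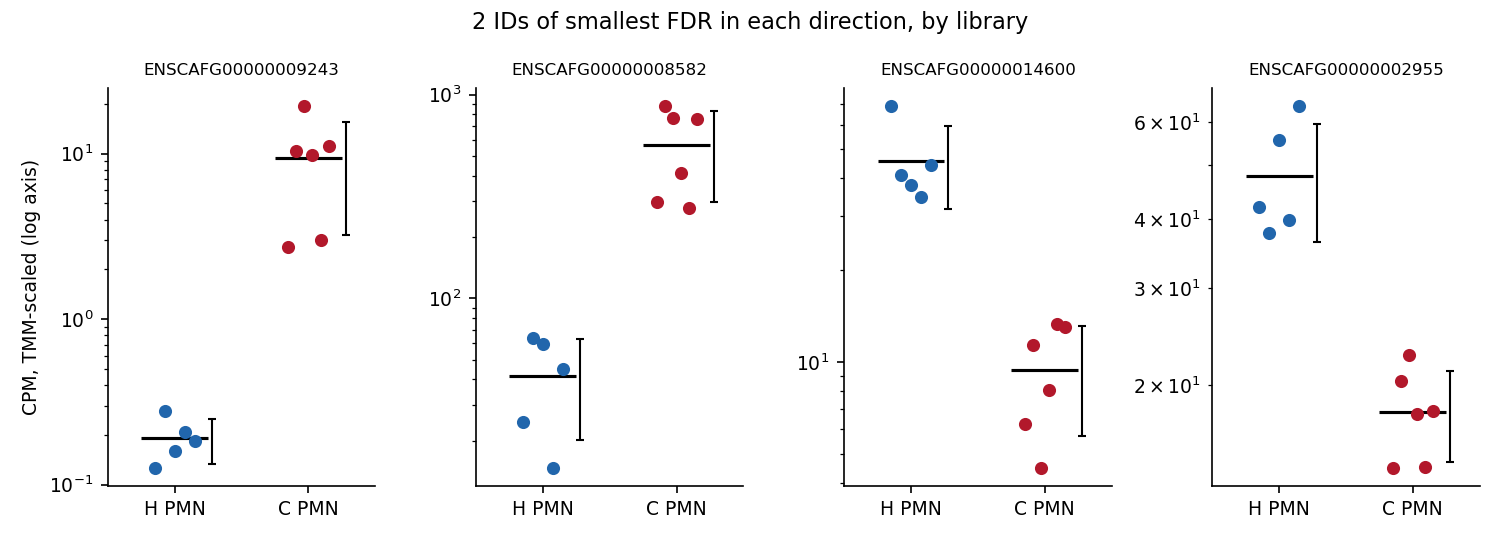
Points are single libraries, with TMM-scaled CPM on a log axis whose range differs between panels, horizontal lines are group means, and the bars beside them are 1 SD on each side (n = 6 C PMNs and 5 H PMNs). In none of the 4 IDs do the groups overlap, with ENSCAFG00000009243 and ENSCAFG00000008582 higher and ENSCAFG00000014600 and ENSCAFG00000002955 lower in C PMNs.

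The same 4 IDs were read in the other sorted populations on a scale common to all 40 libraries. On this scale ENSCAFG00000008582 was at 331 to 1039 CPM in the 6 C PMNs and 18.2 to 76.4 in H PMNs. It was at 437 to 815 CPM in C MONOs of the same series, 360 to 710 in the monocytes of healthy dogs (H MONOs) and 871 to 1101 in monocytic MDSCs. In granulocytic MDSCs (PMN-MDSCs) of the same series it was at 29.6 to 220.0 CPM, below every C PMN library and overlapping H PMNs. The ranges of monocytes and C PMNs thus overlapped. The monocyte list in C PMNs summed to between 0.160% and 1.49% of its C MONO median. The part of monocytes in the C PMN level of ENSCAFG00000008582 was not tested. ENSCAFG00000009243 was at 3.18 to 22.8 CPM in C PMNs and 5.01 to 15.4 in PMN-MDSCs. It had a median of 1.34 and at most 1.95 CPM in C MONOs, and was at 0.566 to 0.812 in H MONOs. In monocytic MDSCs of the same series it was at 3.22 to 6.33 CPM, within the C PMN range. ENSCAFG00000014600 was at 42.7 to 84.6 CPM in H PMNs, 5.25 to 15.9 in C PMNs and 3.99 to 18.1 in PMN-MDSCs. ENSCAFG00000002955 was at 45.1 to 76.8 CPM in H PMNs, 16.5 to 26.5 in C PMNs and 8.43 to 17.8 in PMN-MDSCs. For the 2 lower IDs the PMN-MDSC libraries therefore lay below all H PMN libraries. The study speaks of PMN-MDSCs and PMNs of the same patient, so that PMN-MDSC and C PMN libraries may share dogs, and no label pairs them.

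The 94 called genes were read in the same populations. The median over the 75 higher genes, in log2 of CPM with 0.1 added, was 3.78 to 4.34 in H PMN libraries, 5.18 to 5.88 in C PMNs and 4.96 to 5.46 in PMN-MDSCs of the same series. It was 3.96 to 4.57 in C MONOs and 3.66 to 4.13 in H MONOs. The median over the 19 lower genes was 5.35 to 5.67 in H PMNs, 3.49 to 3.97 in C PMNs and 1.87 to 4.02 in PMN-MDSCs. It was 1.44 to 2.66 in C MONOs and 1.94 to 2.89 in H MONOs, so that monocytes of both disease states were below every H PMN library. The H PMN and C PMN values restate the calls, and those of the other populations are a description.

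**Figure D4:**
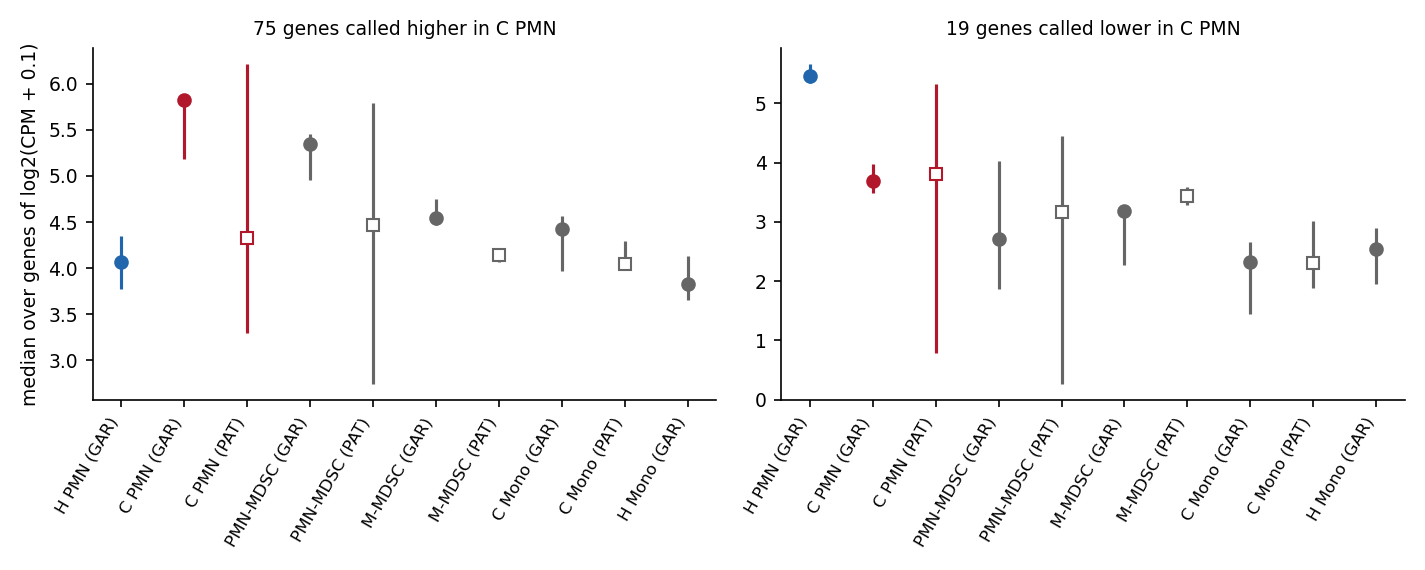
For the 75 genes called higher (left) and the 19 called lower (right), each marker is the median over libraries, and each line the range, of the median log2(CPM + 0.1) over genes. Filled circles are series GAR4079 and open squares series PAT4694, in which the C PMN range (3.30 to 6.22 for the 75 genes) spans the H PMN and C PMN ranges of GAR4079.

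The 4 C PMN libraries of series PAT4694 did not take part in the comparison, and no H PMN library of that series was there to set beside them. Their medians for the 75 genes ran from 3.30 to 6.22, below the lowest H PMN library at one end and above the highest C PMN library at the other. For the 19 genes they ran from 0.79 to 5.32. ENSCAFG00000009243 was at 0.0737 to 9.36 CPM and ENSCAFG00000008582 at 29.3 to 742 CPM in these libraries. ENSCAFG00000014600 was at 0 to 46.5 CPM and ENSCAFG00000002955 at 19.5 to 66.2 CPM, and 1 of the 4 libraries held only 4229857 counts. The lowest counts were 2 for ENSCAFG00000009243, 18 for ENSCAFG00000008582, 0 for ENSCAFG00000014600 and 12 for ENSCAFG00000002955. The low ends of the CPM ranges thus rest on few counts and on the scaling of single libraries. For all 4 IDs the CPM ranges overlapped those of H PMNs and those of the C PMNs of series GAR4079. A fit of all 15 neutrophil libraries that held the series as a covariate called 2 genes, both higher. With no H PMN library in series PAT4694, the added libraries bear on the series term and the spread but not on the difference between the groups. ENSCAFG00000009243 had an edgeR FDR of 0.0415 in that fit, ENSCAFG00000008582 of 0.143, ENSCAFG00000002955 of 0.177 and ENSCAFG00000014600 of 0.498. The log2 fold changes stayed at 5.62, 3.78, -1.41 and -2.26 in the same order. The common biological coefficient of variation was 0.532 among the 11 libraries and 0.661 among the 15. The fit of 15 libraries was not repeated without the library of 4229857 counts, and its part in these values was not tested.

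The called genes were also counted by lineage, as seen in the libraries of series PAT4694, with no test between the classes. Of 587 tested genes at least 4-fold higher in neutrophils than in monocytes there, 22 were called (3.75%), 15 higher and 7 lower. Of 7531 genes within 4-fold, 57 were called (0.757%), 48 higher and 9 lower. Of 2546 genes at least 4-fold higher in monocytes, 15 were called (0.589%), 12 higher and 3 lower. Without C PMN 4, the library with the highest monocyte sum, 10 of those 12 and 2 of those 3 were still called. The share called was 0.198% of genes under 1 CPM and 1.90% of genes over 100 CPM, and the part of level in the difference between lineage classes was not tested. From the lists that define each lineage, 1 of the 27 neutrophil genes and 1 of the 48 monocyte genes tested were called, both higher, where 0.703% of all genes tested were called higher. A single call in lists of this size is no result about them. The median log2 fold change was 0.39 over the neutrophil list and 1.04 over the monocyte list, beside 0.01 over all genes tested. The library medians of the summed lists were not higher in C PMNs. They were 202 CPM in C PMNs and 288 in H PMNs for the monocyte list, and 67603 and 67912 for the neutrophil list. C PMN 4 held the highest monocyte sum (1388 CPM) and C PMN 1 the highest neutrophil sum (147273 CPM). The list fold changes were not taken without these libraries.

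Monocytes of the same series allow the same contrast of disease states to be set beside that in neutrophils, with 4 C MONO and 3 H MONO libraries that no label ties to the dogs of the PMN libraries. No gene was called between C MONOs and H MONOs by edgeR's quasi-likelihood test, with 516 of 13509 genes at an unadjusted p under 0.05. The neutrophil contrast called 227 genes in that fit of 4 groups, against 94 in the fit of neutrophils alone. The study itself reported differentially expressed genes between tumor-bearing and healthy dogs for both PMNs and monocytes. It had more C MONO samples than these 4, so that its calls and those given here are not from the same samples. Of the 75 genes higher in C PMNs, 63 (84.0%) also had a higher value in C MONOs, where 52.6% of all genes did, with a median log2 fold change of 0.41. Of the 19 lower genes, 13 (68.4%) had a lower value in C MONOs, where 46.8% of all genes did, with a median of -0.22. In neutrophils, where these genes were called, the medians were 1.96 and -1.76. By the same quasi-likelihood test, 17 of the 75 and 2 of the 19 had an unadjusted p under 0.05 in monocytes in that direction. Of all 13509 genes, 307 had one for higher and 209 for lower values. The difference between the 2 contrasts was tested gene by gene in a single fit, and edgeR's quasi-likelihood test called it for no gene, while 1068 (7.91%) had an unadjusted p under 0.05. Among these were 52 of the 75 and 14 of the 19 genes, which their choice by the neutrophil contrast favors. The edgeR likelihood ratio test called 40 genes, 23 of them with a positive difference (neutrophils minus monocytes). ENSCAFG00000009243 had a log2 fold change of 1.03 (SE 0.55) in monocytes and a difference of 4.56 (SE 0.72, edgeR FDR 0.0667) between the lineages. ENSCAFG00000008582 had a log2 fold change of 0.14 in monocytes and a difference of 3.62 (SE 0.60, edgeR FDR 0.0671). For ENSCAFG00000014600 and ENSCAFG00000002955 the differences were -1.56 and -1.06 (edgeR FDR 0.636 and 0.493).

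The 2 groups were also compared across all genes at once. The division into C PMNs and H PMNs accounted for 16.8% of the variance between libraries (pseudo-F 1.82, exact permutation test over all 462 divisions, p = 0.00433, where the smallest p possible was 0.00216). In 10 of the 11 libraries the centroid of the own group, taken without the library itself, was the nearer one. C PMN 5 lay at 101 from its own and 99.5 from that of H PMNs. Pseudo-F also responds to unequal spread, and the spread did differ. Pairs of C PMN libraries lay 126 to 160 apart (median 139, 15 pairs) and pairs of H PMN libraries 88.3 to 123 apart (median 106, 10 pairs), in Euclidean distance of log2 CPM. Every pair of C PMNs was thus farther apart than every pair of H PMNs, and the means differed by 36.1 (exact permutation test, p = 0.00433, a comparison chosen after the distances had been seen). By gene, 72.3% of those tested had the larger SD in C PMNs, with a median SD of 0.62 against 0.45 in H PMNs.

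**Figure D5:**
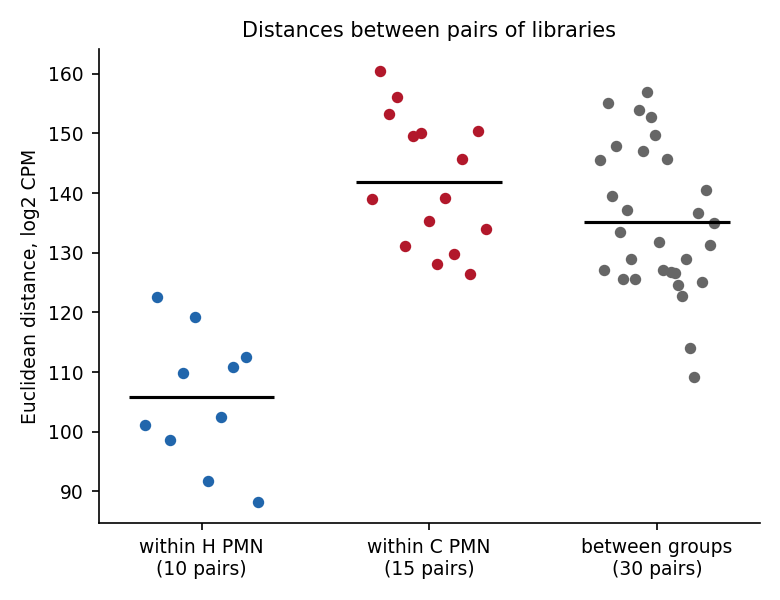
Points are pairs of libraries, with the Euclidean distance over log2 CPM of 10664 genes on the vertical axis, and lines are means. All 15 C PMN pairs (126 to 160) lie above all 10 H PMN pairs (88.3 to 123), and the 30 pairs between groups have a median of 133.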

How the data were processed

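Sorted cells were sequenced from Smart-seq2 libraries as 75 bp read pairs. The authors aligned reads with HISAT2 to CanFam3.1, marked duplicates with Picard 1.92 and counted those on Ensembl genes with featureCounts (Subread 1.5.0). They deposited raw counts for 24580 gene IDs and 92 spike-ins, left out here, and the TPM values they deposited were used for an alternative and relative gene length. The 2 files of deposited CPM values were not used.

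Libraries were grouped by label. edgeR 4.0.16 (R 4.3.3) fitted the 11 libraries after filterByExpr and TMM, and genes with a Benjamini-Hochberg FDR of at most 0.05 were called. Each SE is the absolute log2 fold change divided by the square root of the test's F statistic, so that it holds no information beyond the test. Distances used log2 CPM with a prior count of 2. Exact permutation tests were two-sided or, for pseudo-F, without direction. limma 3.58.1 and DESeq2 1.42.0 served as alternatives, and the tests were tried on simulated data. Of the gene IDs, 0 matched a symbol, so symbol lists, sequences and positions were not analysed here, and the named IDs are the 2 of smallest FDR in each direction, with ties settled by unadjusted p. Members and lists were chosen with earlier results of these data known. The lineage lists (at least 50 CPM, 50-fold, at most 50 genes) came from C PMN and C MONO libraries of series PAT4694. Reads are not molecules, so depth covers counting error only. Smart-seq2 does not mark strand, so that reads of overlapping or antisense genes, and of near-identical copies, can be split or shared between IDs. No 2 libraries of the same group agreed within sampling noise, and pairs across the groups were not checked for this.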

Additional observations from a re-analysis of the deposited data

Results flagged for a closer look

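Within groups of 4 to 10 libraries, a library was taken as standing apart when its gap to the nearest other, divided by the range, passed Dixon's 95% value, which chance passes in about 1 in 20 groups. Of 24 groups examined, 3 held such a library. The share of counts in the 10 most abundant genes was lowest in H PMN 5, at 13.7%. ENSCAFG00000014600 was highest among H PMNs in H PMN 1, at 69.2 CPM, and it was called without that library too. The summed monocyte list was highest among C PMNs in C PMN 4, at 1388 CPM. Without C PMN 4, 117 genes were called.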

How the results depend on the processing

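The count of 94 genes called was the least stable value. It was 570 with DESeq2's Wald test, 375 with edgeR's likelihood ratio test, 169 with limma voom with quality weights, 166 with all 26 libraries of series GAR4079 in a single fit and 2 with all 15 neutrophil libraries and series as a term. At an FDR of at most 0.01 it was 13, and leaving out each library in turn gave 13 to 175. Within 1.5 times were 97 with DESeq2's size factors, 127 with library size alone, 137 with no filter and 105 with at least 10 counts in every library. The cause of these differences was not tested. All 4 tests called 83 genes in common. None of the 94 genes, and none of the 4 named IDs, changed direction under an alternative in which it was tested. The separation of the groups (pseudo-F 1.52 to 1.95 without single libraries) and the difference in spread (30.6 to 43.2 without single libraries, 22.1 with log2(TPM + 1), 21.9 over the 500 most variable genes, 10.5 over genes above 10 TPM, with fewer genes or another scale behind the distances) stayed past the threshold under each alternative run. The difference between lineages went from 0 to 40 calls with the likelihood ratio test and stayed at 0 with DESeq2's size factors. Counting lineage classes without the PAT4694 C PMN library of lowest depth, added after its depth had been seen, gave 26, 54 and 14 calls in place of 22, 57 and 15. No paired analysis was possible because C PMNs came from tumor-bearing dogs and H PMNs from healthy dogs.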
